A study of Mus musculus with 4 samples.

Results

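Cytoplasmic ribosomal protein transcripts were examined in mouse prefrontal cortex after repeated social threat. The members were the probe sets annotated with exactly 1 gene symbol that begins with Rpl or Rps and a digit, or that is Rpsa, Rplp0, Rplp1 or Rplp2, leaving out the S6 kinases and symbols of annotated pseudogene or related-sequence type. This took 106 of the 45037 probe sets tested, from 50 gene symbols: 48 probe sets of 26 large-subunit symbols and 58 probe sets of 24 small-subunit symbols. By the suffix of the probe set name, 35 were _at, 28 were _a_at, 3 were _s_at and 40 were _x_at.

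Total RNA of prefrontal cortex from 5 mice was pooled for each array, on the Affymetrix MOE430 2.0, a 3′-biased oligonucleotide array. The control group had 2 pools, whose environment was labelled LowThreat, and the threat group, which met repeated social threat, had 2 pools labelled HighThreat. The labels gave no strain, sex, age, genotype, length of exposure or interval to tissue collection, and nothing tells whether pools of a group came from separate cages or days, so p-values measure only the spread between these pools. The deposited values were log2 expression values, and every difference below is threat minus control on that scale.

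A ribosome is built from a small subunit, which reads the mRNA, and a large subunit, which forms peptide bonds. Its proteins are made in matched amounts, and most of their mRNAs start with a 5′ terminal oligopyrimidine (TOP) tract, through which the kinase complex mTORC1 controls their translation more than their abundance. In neurons, ribosomal protein mRNAs are found in axons and dendrites as well as in the cell body. The mouse genome holds many processed pseudogenes of these genes, and this matters for the array. Probes of an _at set match 1 transcript, those of an _a_at set match several transcripts of the same gene, those of an _s_at set are shared by transcripts of different genes, and an _x_at set holds some probes that also match other sequences.

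The annotation left much of the ribosome out of view. Of 89 protein-coding genes whose RefSeq symbol meets the rule, 49 had a probe set of their own, 31 appeared only on probe sets with several symbols, and 9 were on neither kind. Rps4l, the remaining member symbol, is listed by RefSeq as a transcribed pseudogene, and Rps19bp1, which the rule takes by its spelling, encodes a binding partner of RPS19 and no ribosomal protein. In all 4 pools, 9 members lay at or below 4.25, the top value reached by 27 control probe sets designed on Bacillus genes, for which mouse RNA holds no target: 1 each of Rpl27a, Rpl35, Rpl39l, Rpl3l, Rps10, Rps16 and Rps9, and 2 of Rps18. Rpl39l and Rpl3l are known for their expression in testis and in muscle.

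The pools of a group were not alike in these transcripts. Control pool 1 was above control pool 2 in 92 of the 106 members, with a median gap of 0.10, and threat pool 1 was above threat pool 2 in 81, with a median gap of 0.049. Over all probe sets the same gaps were 0.018 and 0.010. The median deviation of the members from their own mean over the pools was 0.064 in control pool 1, -0.031 in control pool 2, 0.010 in threat pool 1 and -0.048 in threat pool 2. Control pool 1 was thus the highest and threat pool 2 the lowest, while control pool 2 lay below threat pool 1. The _x_at members deviated by 0.086 and -0.022 in the control pools and by -0.003 and -0.065 in the threat pools, and the _x_at sets with no ribosomal protein symbol by 0.051 and 0.014 and by -0.017 and -0.046. In the others both control pools lay above both threat pools, and in the members control pool 2 lay below threat pool 1.

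Other properties also moved with the groups. All 11 measured genes of the myelin list were lower after threat with separate pools, with a mean level from 9.91 to 10.39 in control and from 9.06 to 9.27 in threat, and the 10 measured neuronal markers had a mean level of 11.52 to 11.57 in control and 11.39 in both threat pools. The 11 smooth muscle, pericyte and meningeal genes, all below 0, had a mean level of 8.62 and 9.53 in control and 7.99 and 8.68 in threat, where the pools overlapped. The choroid plexus and ependyma list, with a median of -0.557, had mean levels of 5.24 to 5.96 in control and 4.91 to 4.94 in threat, and the blood list, with a median of -0.613, 6.85 to 7.30 and 6.39 to 6.58. The medians of the endothelial, microglial and astrocyte lists were -0.306, -0.138 and -0.078. The 3 probe sets for 18S ribosomal RNA were highest in threat pool 2, at 10.40, 12.92 and 10.58, against at most 10.31, 12.05 and 9.30 in the other pools. In the first of these threat pool 1 was also above both control pools, while in the others it lay below control pool 1. In bulk tissue, fewer cells of a type and less RNA per cell cannot be told apart, and the part of these shifts in the results was not tested.

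Ribosomal protein transcripts were slightly lower after threat, by an amount smaller than the gap between the control pools. The median difference over the 106 members was -0.038, while the median over all probe sets was 0.015. Below 0 lay 71 members, against 46% of all probe sets, and above it 35, against 54%. Both threat pools lay below both control pools in 32 members, against 19.4% of all probe sets, and above them in 9, against 23.9%. The pools overlapped in the other 65. With each array centred on its median, the members' median was -0.002, with 17 lower and 15 higher, while all probe sets moved to 0.051, with 6728 lower and 13961 higher in place of 8718 and 10749. Without control pool 1 the members' median was 0.008, with 33 lower and 41 higher, against 13997 and 18174 of all 45037 probe sets. Those shares of the 106 members and of all probe sets were close. Without control pool 2 the members' median was -0.087, with 79 lower and 10 higher, against 15850 and 16734. Without threat pool 1 there were 58 lower and 12 higher, against 14945 and 16828. Leaving out threat pool 2 gave 38 and 23, against 14438 and 17649. With 3 pools, separation is met more easily. Centring moved members and all probe sets by the same amount, so the members stayed as far below the others, while the sign of their median turned when control pool 1 was left out.

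No single member passed the test over all probe sets, though 1 named member did when only means of at least 10 were tested. The lowest adjusted p was 0.36 (limma, Benjamini-Hochberg over all probe sets), and no probe set of the array passed at 0.05, of 4774 at an unadjusted p under 0.05. At that unadjusted level 4 members were lower and 1 was higher, against 5.73% and 4.87% of all probe sets. Only 1 member was at least 1.5-fold lower with separate pools, against 0.719% of all probe sets, and none was as much higher, against 0.111%. Most members differed little: the interquartile range ran from -0.112 to 0.013, and 9 probe sets differed by 0.2 or more in either direction.

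The suffix of the probe set went with the result. Among _x_at sets, 32 of 40 were below 0, the median was -0.063, and in 14 the threat pools lay below both controls while in 1 they lay above. The share that was lower with separate pools, 35.0%, was close to the 36% of all _x_at sets of the array, while 2.5% were higher against 14.5%, and 80.0% were below 0 against 63.2%. The other _x_at sets, with no ribosomal protein symbol, had a median of -0.054. The class as a whole was thus tilted downward, with a similar median and lower share and with more higher calls than the ribosomal sets. In the _x_at class, 3 members were lower at an unadjusted p under 0.05, or 7.5%, against 15.7% of all _x_at sets.

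The _a_at and _at members did not share such a background. Of the 28 _a_at members, 9 were lower and 1 was higher with separate pools, against 18.6% and 27% of all _a_at sets, and their median of -0.038 stood beside 0.035 for the other _a_at sets. Of the 35 _at members, 7 were lower and 7 higher, against 18.2% and 24%, with a median of -0.033 beside 0.018. The 3 _s_at members, of Rpl22 and Rps9, had a median of -0.068, with 2 lower and none higher, against 21.6% and 26.1%. Centring each array on its median moved members and others together, to -0.002 and 0.071 for _a_at and to 0.003 and 0.053 for _at. Without control pool 1 the _at members had a median of 0.042, above the 0.024 of the other _at sets, and the _a_at members a median of 0.002, below the 0.049 of the others.

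Level and suffix were tied, because the members with a mean of at least 10 were mostly _a_at and _x_at sets. Among the 67 members at or above that level, 24 were lower and 2 higher with separate pools, against 21.5% and 28% of all probe sets in that range. Of these, the 33 _x_at members held 13 lower and 1 higher, against 42.3% and 16.1% of all _x_at sets at that level. The 26 _a_at members there held 7 lower and 1 higher, against 26.2% and 22.6%, and the 6 _at members 2 lower and none higher, against 15.4% and 32.8%. Above this limit the lower share of the ribosomal _x_at and _a_at sets was close to that of all sets of the same suffix, and the higher share was below it. Levels were not matched within that range: the median level was 12.59 for the _x_at members against 11.48 for all _x_at sets, and 12.67 against 11.09 for _a_at. The 39 members below a mean of 10 held 8 lower and 7 higher, against 19.1% and 23.5% of all probe sets in that range.

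Probe sets that name several genes were examined as well. A further 110 probe sets carried several symbols of which at least 1 meets the rule, such as those of Rpl23 and Rpl36a, and they had a median of -0.039, with 43 lower, or 39.1%, and 8 higher, or 7.3%, against 19.4% and 23.9% of all probe sets. The 43 _x_at sets among them had a median of -0.065 and held 25 lower ones, or 58.1%, against 36% of all _x_at sets, and 88.4% of them were below 0 against 63.2%. The 34 _a_at sets had a median of -0.001, with 8 lower and 5 higher, or 23.5% and 14.7%, against 18.6% and 27% of all _a_at sets. Among these several-symbol _x_at sets the lower share was thus above that of the class, unlike among the members. Their levels were not matched, with a median level of 12.58 against 6.64 for all _x_at sets. Of all _x_at sets with a mean of at least 10, 42.3% were lower. All 110 sets are annotated with several symbols, so their values are given below only beside those of a member.

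By subunit the medians were close. The 48 large-subunit probe sets had a median of -0.033, with 13 lower and 5 higher, or 27.1% and 10.4%. The 58 small-subunit probe sets had a median of -0.047, with 19 lower and 4 higher, or 32.8% and 6.9%, against 19.4% and 23.9% of all probe sets. Within the _x_at class, 22 of the 24 small-subunit sets were below 0, with a median of -0.077 and 9 lower and none higher, and 10 of the 16 large-subunit sets, with a median of -0.03 and 5 lower and 1 higher. The background over all _x_at sets was 36% lower, 14.5% higher and 63.2% below 0. No test of the difference between subunits was made, since probe sets of the same gene and pools are not replicates.

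The probe sets that stood farthest out were read against the other probe sets of their genes. Rps9, a small-subunit protein that binds ribosomal RNA early in assembly, was the only member past 1.5-fold. Its _x_at set read 10.90 and 10.68 in control and 10.05 and 9.93 in threat. Both threat pools were well below both control pools, and the difference of -0.80 ± 0.11 (SE, n = 2 pools a group) was a 1.74-fold lower value, with an unadjusted p of 0.00059 and an adjusted p of 0.36 by limma. Leaving out each pool in turn gave -0.91 to -0.70. The _s_at set of the same gene read 12.53 and 12.43 in control and 12.43 and 12.36 in threat. It differed by -0.09 ± 0.10, with pools that just separated. The third Rps9 set, an _at set that lay at the Bacillus level in every pool, differed by -0.17 ± 0.11. The large difference was thus present in 1 of the 3 Rps9 probe sets.

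Rpl27a, a large-subunit protein, was read by a pair of _at sets. The measured set gave 9.49 and 9.28 in control and 8.85 and 8.90 in threat, with no overlap. It was 1.42-fold lower, at -0.51 ± 0.11, with an unadjusted p of 0.0044 and an adjusted p of 0.42 by limma. The other set lay at 3.61 to 3.95, below the highest Bacillus value, and carries no information on this difference. An _at set that Rpl27a shares with other symbols read 12.98 and 13.10 in control and 12.95 and 12.99 in threat, overlapping at -0.07 ± 0.10.

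Rpl37, a zinc-binding large-subunit protein, had a single probe set of its own, of the _x_at class. It read 9.61 and 9.62 in control and 9.17 and 9.14 in threat, so that each group varied by far less than the distance between them. It was 1.38-fold lower, at -0.46 ± 0.09, with an unadjusted p of 0.0024 and an adjusted p of 0.41 by limma. Leaving out each pool in turn moved the difference only from -0.47 to -0.45. Sets shared by Rpl37 and Rpl37rt did not all run the same way: an _x_at set was at -0.22 ± 0.09, an _a_at set at -0.07 ± 0.09 and a further _x_at set, with 7.70 and 7.66 in control and 7.96 and 7.76 in threat, at 0.18 ± 0.11, each with separate pools.

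Rpl27, also of the large subunit, had 3 probe sets with different readings. Its _x_at set gave 10.95 and 10.93 in control and 10.74 and 10.68 in threat, a difference of -0.23 ± 0.09 with separate pools, an unadjusted p of 0.049 and an adjusted p of 0.47 by limma. Its _a_at set was lower by a smaller amount, -0.14 ± 0.09, also with separate pools. Its _at set gave 12.17 and 12.05 in control and 12.13 and 12.10 in threat. There the threat pools lay between the control pools, and the difference was 0.01 ± 0.10.

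The 1 member that was higher at an unadjusted p under 0.05 was Rps4l, the transcribed pseudogene related to Rps4x, read by an _at set. It gave 9.05 and 8.96 in control and 9.37 and 9.40 in threat. Both threat pools were above both control pools, 1.30-fold at 0.38 ± 0.09, with an unadjusted p of 0.0079 and an adjusted p of 0.43 by limma, and the difference stayed between 0.33 and 0.43 when each pool was left out. Rps4x, the X-linked gene of the small-subunit protein, read 12.62 and 12.55 in control and 12.54 and 12.56 in threat by its _a_at set. Its pools overlapped, at -0.04 ± 0.09.

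The start regions of the genes of the 5 probe sets farthest below 0 are shown because TOP mRNAs are defined by their first bases. The windows are from RefSeq on GRCm38.p6, 30 bases long, 5′ to 3′ on the gene's strand, with the annotated start at base 16, and an unbroken run of C and T of at least 5 that covers the start in capitals. For a gene with several annotated starts, such as Rps24 with 2, the start with the longest run is shown.
Rps9, chr7:3704026-3704055, + strand: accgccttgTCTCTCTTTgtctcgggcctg
Rpl27a, chr7:109519180-109519209, + strand: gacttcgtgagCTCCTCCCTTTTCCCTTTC
Rpl37, chr15:5116598-5116627, + strand: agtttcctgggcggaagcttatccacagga
Rps18, chr17:33955651-33955680, - strand: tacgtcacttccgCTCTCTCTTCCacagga
Rps24, chr14:24490663-24490692, + strand: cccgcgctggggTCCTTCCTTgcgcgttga
The run is 9 bases long in Rps9 and Rps24, 11 in Rps18 and 20 in Rpl27a, where it goes on past the window. Rpl37 has none at the annotated start. In the other genes shown the run begins before the annotated start, so its length is not that of a TOP tract. The run therefore does not sort these genes into TOP and other mRNAs. An annotated start can differ by some bases from the one used, and 44 of the 50 member genes matched the table. A run of at least 5 covered the start in 13 of the 44, or 29.5%, against 11.8% of the 27025 genes in the table, while runs of A and G did so in 15.9% against 19.5%. A gene was counted if any of its annotated starts had the feature. The letters CCGGAAGT or their reverse complement ACTTCCGG, a motif of ETS factors, were found within the 300-base promoter window of 22.7% of member genes against 4.31% of all, and AAGATGGC or its reverse complement GCCATCTT, the core of the YY1 motif, in 9.09% against 3.19%. The gene means of the difference had a median of -0.02 over the 13 genes with a C and T run and -0.034 over the 31 without. These medians were close, but annotated starts can be off, so the split does not separate TOP mRNAs from others. A difference tied to the TOP tract was not tested.

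Probe sets of the same gene were set side by side. Of the 50 symbols, 26 had 1 probe set and 24 had at least 2. Among those 24, the probe sets lay on both sides of 0 in 11 genes, the median range within a gene was 0.14, and the range was under 0.1 in 8 genes and at least 0.3 in 6. Where a gene had at least 2 probe sets with a mean of at least 10, as 17 did, the median range was 0.12 and 1 gene had a range of 0.3 or more.

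In 3 genes with several probe sets, separate pools occurred in both directions. Rps18, a protein of the small-subunit head, had 6 probe sets. An _at set gave 5.84 and 5.54 in control and 5.54 and 5.30 in threat, a difference of -0.27 ± 0.14, with a control and a threat pool nearly level. One _x_at set was lower at -0.12 ± 0.09, with 12.46 and 12.35 in control and 12.28 and 12.30 in threat. The set that was higher, at 0.10 ± 0.09, was an _at set below the Bacillus maximum. The _a_at set and a further _x_at set were at 0.05 ± 0.10 and 0.01 ± 0.10 with overlapping pools, and the last _x_at set was at the Bacillus level. The sets of this gene gave no common direction.

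Rps20, another protein of the small-subunit head, had 4 probe sets. One _x_at set read 12.47 and 12.34 in control and 12.22 and 12.18 in threat, at -0.20 ± 0.10, and the second was at -0.11 ± 0.09. Both were lower with separate pools, as was the _a_at set at -0.12 ± 0.10. The _at set was higher, with 4.89 and 4.86 in control and 5.20 and 4.92 in threat, at 0.19 ± 0.12. Threat pool 1 was the high one, and threat pool 2 was close to the controls.

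Rps24, a small-subunit protein whose gene is spliced in several forms, had 6 probe sets. Its 4 _x_at sets ran from -0.23 to -0.06, and the pools of 2 of them were separate. The lowest read 12.13 and 12.14 in control and 11.99 and 11.84 in threat, at -0.23 ± 0.10. Its _at sets were at 0.08 ± 0.09 and -0.04 ± 0.15, the first with separate pools at 4.46 in both control pools and 4.48 and 4.60 in threat. In all 3 genes the sets that were higher with separate pools were _at sets with means below 5, and those that were lower included _x_at sets with means above 12.

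Across the remaining large-subunit proteins the differences were small. Rplp0 and Rplp2 belong to the stalk that recruits elongation factors. Rplp0 read 12.55 and 12.44 in control and 12.41 and 12.31 in threat, lower with separate pools at -0.13 ± 0.10, while Rplp2 was at 0.01 ± 0.09 with overlapping pools. Rpl11, which also binds the p53 regulator Mdm2, was at 0.02 ± 0.10. Rpl7 was lower in each of its 3 probe sets, at -0.12 for the _a_at set and -0.16 and -0.11 for the _x_at sets, all with separate pools. Rpl41, a very short basic peptide, had 4 sets above 0, from 0.01 to 0.14, of which 1 _x_at set was higher with separate pools at 0.12 ± 0.09. The Rpl14 set was higher at 0.20 ± 0.09, with 7.08 and 7.01 in control and 7.20 and 7.28 in threat, while of 5 sets that name Rpl14 beside another symbol, 3 _x_at sets were lower with separate pools, at -0.06, -0.07 and -0.11, and the others were at 0.01 and -0.04. Rpl35 was read by 6 sets, of which the 5 above the Bacillus level had overlapping pools and differences from -0.05 to 0.04. Rpl38, studied for its part in Hox mRNA translation, was at -0.06 ± 0.09 with separate pools.

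The small-subunit proteins were similar. Rps6, the substrate of the S6 kinases downstream of mTORC1, had sets at -0.05 ± 0.11 and 0.17 ± 0.21 with overlapping pools. Sets that name Rps6 beside another symbol varied. Their _at sets at -0.44 ± 0.11 and -0.23 ± 0.12 and _x_at sets at -0.21, -0.18 and -0.07 were lower with separate pools. An _a_at set was higher with separate pools, at 0.06 ± 0.09, and the others, at -0.04, -0.02 and 0.13, overlapped. Rps3, at the mRNA entry channel, was above 0 in its 3 sets, from 0.01 to 0.09, and Rps19, the gene most often mutated in Diamond-Blackfan anaemia, was at -0.02 ± 0.09. In these Rps3 and Rps19 sets the pools overlapped. Rps28 read 13.22 and 13.23 in control and 13.03 and 13.06 in threat by its _a_at set, at -0.18 ± 0.09, and its 2 _x_at sets were at -0.07 and -0.04. Rps29 had 3 _x_at sets at -0.14, -0.05 and -0.01, of which the first had separate pools. Rps14 had 2 _x_at sets at -0.18 and -0.04, again with separate pools in the first only. Rpsa, a ribosomal protein also described as a laminin receptor, was at -0.04 and -0.11 in its pair of _at sets. Fau, which encodes the small-subunit protein RPS30 fused to a ubiquitin-like peptide and falls outside the symbol rule, read 12.76 and 12.73 in control and 12.78 and 12.75 in threat, at 0.02 ± 0.09. Rack1 was not measured under a single symbol.

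Several ribosomal proteins have a paralog, and the pairs were compared by their differences only. Rpl22, a large-subunit protein studied in lymphocyte development, had 3 sets at -0.07, -0.02 and 0. Its paralog Rpl22l1 read 12.34 and 12.38 in control and 12.26 and 12.11 in threat, lower with separate pools at -0.17 ± 0.10. Rpl7l1, the paralog of Rpl7, had 1 set that was higher, with 7.04 and 6.67 in control and 7.10 and 7.12 in threat, at 0.25 ± 0.14. Control pool 2 alone was far from the other pools in that set, and without it the difference was 0.07. The other Rpl7l1 sets were at -0.04 and -0.06 with overlapping pools.

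Rps27 and its p53-responsive paralog Rps27l lay on opposite sides of 0. Rps27 read 7.43 and 7.27 in control and 7.55 and 7.41 in threat, with overlapping pools at 0.13 ± 0.11. An _a_at set shared by Rps27 and Rps27rt read 12.95 and 12.77 in control and 12.93 and 12.86 in threat. It overlapped as well, at 0.04 ± 0.10. Rps27l had 3 sets at -0.12, -0.08 and -0.10, with separate pools in the _a_at set alone, and the difference between the paralogs was not tested. Their starts are shown because the paralogs differ there: Rps27 has a run of 9 and Rps27l, as well as Rpl7l1 and Rpl22l1, has none of 5 or more at the annotated start.
Rps27, chr3:90213634-90213663, - strand: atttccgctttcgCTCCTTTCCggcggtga
Rps27l, chr9:66946071-66946100, + strand: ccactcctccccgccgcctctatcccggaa
Rpl7l1, chr17:46782642-46782671, - strand: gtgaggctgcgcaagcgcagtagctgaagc
Rpl22l1, chr3:28805493-28805522, + strand: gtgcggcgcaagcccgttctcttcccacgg
Rpl39 was higher with separate pools at 0.10 ± 0.09, from 6.94 and 6.88 in control to 7.05 and 6.96 in threat, while an _a_at set it shares with another symbol was lower at -0.17 ± 0.09, from 13.44 and 13.33 to 13.19 and 13.23. Its paralog Rpl39l, at -0.03, and the Rpl3 paralog Rpl3l, at -0.10, were at the Bacillus level and give no information. Rpl3, Rpl10, Rpl10l, Rpl36a and Rpl36al had no probe set of their own.

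The rest of the translation machinery was read with 1 probe set per gene, that with the highest mean. Over the 18193 genes so measured the median was 0.024, and 18.8% were lower and 26.2% higher with separate pools. On that footing the 50 cytoplasmic ribosomal symbols had a median of -0.037, with 16 lower and 4 higher. The 76 mitochondrial ribosomal proteins, which serve the separate ribosome of mitochondria, had a median of 0.070, with 4 lower and 14 higher. Both were smaller shares than over all genes measured. The mitochondrial median was 0.17 without control pool 1 and -0.028 without control pool 2, so it too depended on the control pool. Mrpl38 read 8.73 and 8.58 in control and 9.04 and 8.88 in threat, at 0.30 ± 0.11, and was the list's largest difference, before Mrpl35 at 0.22 and Mrps15 at 0.21.

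Other mRNAs with a TOP tract had a median of -0.019 over 15 measured genes, and that median was 0.016 under median centring. Of these genes 4 were lower and 2 higher, against 18.8% and 26.2% of all genes measured. Npm1, the nucleolar chaperone nucleophosmin, read 11.67 and 11.64 in control and 11.43 and 11.29 in threat. Both threat pools were lower, at -0.30 ± 0.10, with an unadjusted p of 0.026 and an adjusted p of 0.45 by limma. Eef1b2, the exchange factor of elongation factor 1, was at -0.24 ± 0.12 with separate pools, and Nap1l1, a nucleosome assembly protein, was higher at 0.15 ± 0.09.

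Translation factors had a median of 0.064 over 25 measured genes, with 5 lower and 9 higher, against 18.8% and 26.2% of all genes measured. Eif4g2, an initiation factor that works without the cap-binding protein, stood apart from this: it read 12.14 and 12.24 in control and 11.67 and 11.77 in threat. The groups did not overlap, and the value was 1.38-fold lower, at -0.47 ± 0.10, with an unadjusted p of 0.0038 and an adjusted p of 0.41 by limma. The release factor Gspt1 and the initiation factor Eif4g3 were each higher at 0.18, with separate pools.

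Ribosome biogenesis factors numbered 32, with 3 lower and 15 higher, against 18.8% and 26.2% of all genes measured, and a median of 0.072. Riok2, a kinase of small-subunit maturation, was the exception in size, with 8.46 and 8.25 in control and 7.97 and 7.85 in threat. It was 1.36-fold lower at -0.44 ± 0.11, with an unadjusted p of 0.0097 and an adjusted p of 0.43 by limma. Wdr12 and Bms1, of large- and small-subunit assembly, were higher at 0.24 and 0.20.

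The list of mTORC1 and Myc regulators had a median of 0.084 over 13 measured genes. Of these, 1 was lower and 8 higher, against 18.8% and 26.2% of all genes measured. Mtor, the kinase itself, read 9.61 and 9.68 in control and 9.92 and 9.90 in threat, a difference of 0.26 ± 0.09, with an unadjusted p of 0.03 and an adjusted p of 0.45 by limma. Eif4ebp1, a repressor of cap-dependent initiation that mTORC1 inactivates, read 7.53 and 7.43 in control and 7.71 and 7.79 in threat, at 0.27 ± 0.10. The pools were separate in both genes. Tsc2, an inhibitor of the pathway, and Mlst8, a subunit of the kinase complex, were each higher at 0.21. The medians of the translation factor, biogenesis and mTORC1 lists stayed above 0 when each array was rescaled or a pool left out, from 0.009 to 0.142. The median over all probe sets did so too, from 0.005 to 0.051. Without control pool 2 the translation factors were at 0.009 and all probe sets at 0.005. In the fit over all probe sets, no gene of any list passed an adjusted p of 0.05 by limma. The counts of separate pools depended on the scaling. Under cyclic loess 9417 of all 45037 probe sets were lower and 9318 higher. The counts were then 7 lower and 6 higher for mitochondrial ribosomal proteins and 7 and 5 for translation factors. They were 6 and 9 for biogenesis factors, 3 and 5 for the mTORC1 list and 14 and 9 for the cytoplasmic ribosomal symbols. Under median centring the cytoplasmic ribosomal symbols had 8 lower and 9 higher, against 6728 and 13961 of all probe sets. For both scalings the lists were counted by 1 probe set per gene and the background by all probe sets, so the units differ.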

How the data were processed

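Total RNA of prefrontal cortex was measured on 4 arrays, each a pool of 5 mice. The deposited log2 values were made with RMA, per the submitters' processing notes, and RMA as usually run brings arrays to a common distribution, which hides a shift of most transcripts. Its settings were not stated. Of 45101 probe sets, 64 controls were left out. Symbols came from the platform annotation and promoters from RefSeq. Threat was compared with control in limma (version 3.58.1, R 4.3.3) by a linear model with eBayes, 2-sided, without a trend, with Benjamini-Hochberg adjustment over 45037 probe sets, checked on simulated data. An exact permutation test of 2 against 2 pools cannot go below 0.333. The number of arrays limits the precision. No depth applies to arrays.

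Named members were, per suffix and direction, up to 3 separate-pool probe sets at an unadjusted p under 0.05, those past 1.5-fold, genes with probe sets in both directions, paralog pairs, and the 3 largest differences of each list; others illustrate roles and were chosen after their values were seen. Members and lists were chosen with earlier results of these data known. Alternatives were other scalings, filters, a trend, the pool number as a block, other ways of counting genes, and leaving out each pool.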

Additional observations from a re-analysis of the deposited data

How the results depend on the processing

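Cyclic loess gave 14 higher members with separate pools, against 9318 of all 45037 probe sets. Median centring gave 17 lower and 15 higher, a median of 0.003 for _at, -0.032 for _s_at and 0.002 for the large subunit, and, since it moves all probe sets alike, put near-zero sets of Rpl22 (0.02 and 0.03), Rps4x (0.01) and Rpl39l (0) on the other side. With only means of at least 10 tested, 2 members were higher. Of the 4052 probe sets then tested, 33 passed an adjusted p of 0.05 (limma), 690 an unadjusted p of 0.05 and 45 the rule of size. Among the 18 named members tested there, 1 passed the adjusted p of 0.05. Among all probe sets, 5463 passed 1.2-fold and 48 passed 2-fold. Without _x_at and _s_at sets 16 members were lower, and with several-symbol sets 75 were lower and 17 higher. Among sets with means below 10, an alternative chosen after seeing the data, the median was -0.12 for _a_at and -0.002 for _s_at. The causes were not tested. The pool number as a replicate block gave 6054 probe sets at an unadjusted p under 0.05, none adjusted, and changed no other call; the labels do not say that the numbers pair pools, and pool 1 deviations correlated at 0.33.

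Leaving out each pool gave medians of -0.087 to 0.008 for all members, -0.057 to 0.042 for _at, -0.078 to 0.002 for _a_at, -0.085 to -0.02 for _s_at, -0.13 to -0.005 for _x_at, -0.078 to 0.028 for the large and -0.102 to -0.004 for the small subunit. Counts ran from 33 to 79 lower and 10 to 41 higher members, and over all probe sets from 2922 to 4037 at an unadjusted p under 0.05 and 673 to 818 by size. Named probe sets whose sign turned ran from -0.06 to 0.02 (_at) and -0.05 to 0.04 (_s_at) for Rpl22, -0.13 to 0.09 for Rps4x, -0.17 to 0.01 for Rps27l, -0.11 to 0.04 for Rpl39l, -0.16 to 0.08 and -0.16 to 0.04 for Rpl7l1, -0.04 to 0.13 (_a_at) and -0.07 to 0.1 (_x_at) for Rps18, -0.23 to 0.15 for Rps24 and -0.21 to 0.02 for Rpl3l.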
